A study of Mus musculus with 9 samples.

Results

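The genes described here encode the extracellular metalloproteases of mouse liver endothelial cells and their inhibitors. They were taken as every gene of the deposited count table whose symbol is Mmp, Adam, Adamts, Adamtsl or Timp followed by a number and at most 1 letter, with 1 Adamts gene left out by that rule. This gave 83 members of the 52636 genes in the table, namely 23 matrix metalloproteases (Mmp), 33 Adam, 18 Adamts, 5 Adamtsl and 4 Timp genes. RNA was sequenced from liver endothelial cells, sorted as live cells that lacked CD45, carried CD31 and had bound a VE-cadherin antibody injected into the mice beforehand. The 5 libraries of the first group are labelled Erg and Fli1 double knockout, and the 4 control libraries are labelled Wild Type. All 9 were taken at day 7 after tamoxifen, which per the labels induced the gene deletion. The Cre line that drives the deletion, the strain, and the animals' age in weeks do not appear in the labels. No label names a separate animal for each library, so p-values here describe the spread among these libraries only, which may be technical in part. By Xist and Ddx3y counts, 3 of the 5 libraries labelled knockout and 1 of the 4 controls were female. Each group thus came from more than 1 animal, and how many animals stand behind the libraries is not given.

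Matrix metalloproteases are zinc enzymes that are made as inactive precursors and cut collagens, basement membrane and cell surface proteins. The membrane-type members stay on the cell, and the others are secreted. Adam proteins sit in the membrane, where the catalytic ones release the outer part of receptors and ligands, a step known as shedding. Adamts enzymes are secreted and cut proteoglycans, procollagens and clotting proteins, while Adamtsl proteins share their binding domains and lack the protease domain. Timp proteins block the active sites of these enzymes. In the liver sinusoid, endothelial cells lie on a sparse matrix, and proteases of these families take part in vessel sprouting, shedding of Notch ligands and receptors, and matrix turnover.

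The libraries held between 26791371 and 36401682 counts. Values are CPM (counts relative to the TMM-scaled library total) unless named otherwise, and means are given ± SD with n = 5 libraries labelled knockout and n = 4 control libraries. Fold changes, their SE and adjusted p-values are from edgeR's quasi-likelihood test, adjusted by Benjamini-Hochberg over all 14583 genes tested, and rose, fell, higher and lower refer to an adjusted p under 0.05. Of the targeted genes, Erg had 146, 131, 144, 135 and 159 CPM in the libraries labelled knockout, against 303, 337, 308 and 297 CPM in the controls, and fell 2.18-fold. Fli1 had 125, 151, 172, 123 and 166 CPM in the libraries labelled knockout, against 104, 97.3, 90.4 and 109 CPM in the controls, and rose 1.47-fold. Gene-level Fli1 counts thus showed no loss of that transcript, and every direction given here is relative to the label. All 12 endothelial marker genes examined were measured above 1 CPM in at least one group, with Stab1, Tie1, Clec4g and Tek lower in the libraries labelled knockout and the other 8 not past the threshold. Of those 8, Lyve1 varied widely, at 14.5, 937, 260, 29.5 and 28.1 CPM in the libraries labelled knockout. In the controls it had 815, 923, 1191 and 1092 CPM (edgeR adjusted p = 0.2). Markers of neutrophils summed to between 9.72 and 27.9 CPM in the libraries labelled knockout and between 1.23 and 6.34 CPM in the controls. Platelet and megakaryocyte markers summed to between 63.4 and 136 CPM in the libraries labelled knockout and between 22.6 and 36.5 CPM in the controls, with 4 of the 5 genes higher and Gp1bb not past the threshold. Stellate cell and fibroblast markers summed to between 4.94 and 16.6 CPM in the libraries labelled knockout and between 3.31 and 7.62 CPM in the controls. Of the 6 that could be tested, Pdgfra rose 5.04-fold and 5 did not pass. Pdgfra averaged 1.93 CPM in the libraries labelled knockout and 0.381 CPM in the controls (edgeR adjusted p = 0.00262). Hepatocyte markers summed to between 151 and 326 CPM in the libraries labelled knockout and between 160.1 and 364 CPM in the controls. Of the 8 hepatocyte genes, Ass1 was higher and the others, with fold changes below 0 on the log2 scale, did not pass (list median -1.07). No gene of the Kupffer cell, cholangiocyte, T and B cell or mesothelial lists passed. Kupffer cell and macrophage markers summed to between 72.9 and 546 CPM in the libraries labelled knockout. In the controls they summed to between 75.7 and 351 CPM. In bulk RNA, fewer cells of a type and less RNA per cell cannot be told apart.

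Of the 83 members, 41 had enough counts to be tested, and 20 of these changed (48.8%), against 29.3% of all tested genes. DESeq2 called 21 of the 41 and 34.5% of all tested genes, and limma-voom 19 of the 41 and 29.2%. In the libraries labelled knockout 15 were higher and 5 lower, that is 36.6% and 12.2% of the 41, where 14.5% of all tested genes were higher and 14.8% lower. The median log2 fold change was 0.42 over the 41 members and 0.011 over all tested genes. The count filter favours a difference in a member that passes it only through the group where it is high. These shares therefore describe the tested members and not all 83. Mmp8, Mmp2 and Adam11, with 10, 15 and 19 control counts in all, are among such members. The ranges of both groups lay apart for 16 of the 41, that is 39% (11 with all libraries labelled knockout above all controls, and 5 below), against 27% of all tested genes. By family, 7 of 11 tested Mmp genes, 6 of 13 Adam, 4 of 10 Adamts, 2 of 4 Adamtsl and 1 of 3 Timp genes changed. The 5 that fell were Mmp and Adam genes.

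**Figure D1:**
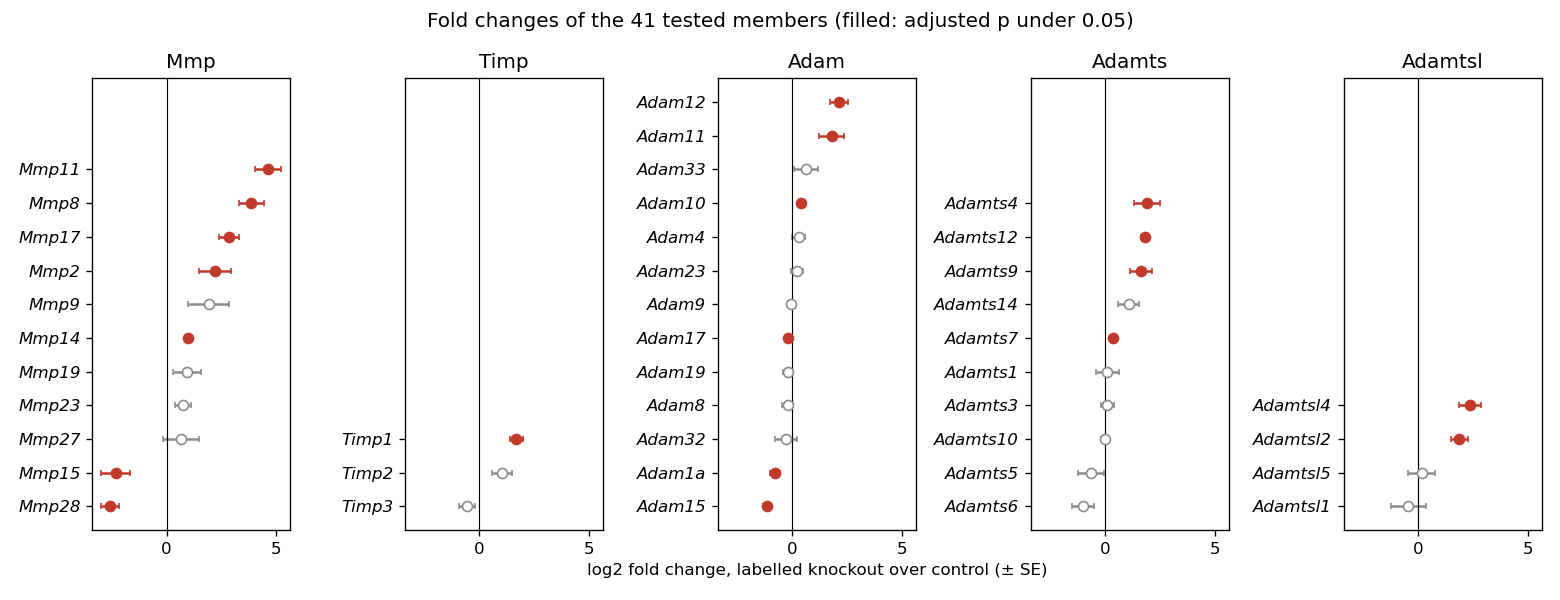
Log2 fold change of each of the 41 tested members, labelled knockout over control, with its SE as a bar, in 1 panel per family. Filled points have an edgeR adjusted p under 0.05. Mmp11, at 4.65, has the highest value and Mmp28, at -2.59, the lowest.

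The family is carried by few transcripts. Per kilobase of annotated exon, Adamts1 had the highest mean of the members in both groups, at 231 CPM per kb in the libraries labelled knockout and 216 in the controls. Its mean in the libraries labelled knockout rests on replicates 2 and 3, at 2633 and 1726 CPM, where the rest had between 499.8 and 708 CPM. In plain CPM, Timp3 had a higher control mean than Adamts1 (1384 against 1147 CPM). By mean per kilobase, Mmp14 stood second in the libraries labelled knockout, at 162 CPM per kb, and came behind Timp3 in the controls, at 83.0. Timp3 came next after Mmp14 in the libraries labelled knockout, at 114 CPM per kb, and stood at 169.9 in the controls. Adam10 followed as the fourth in both groups. Adamts1, Timp3, Adam23, Mmp14 and Adam10 together made up between 69.9% and 75.7% of all members' CPM in the libraries labelled knockout and between 74.8% and 78.9% in the controls. At the other end, 18 members had no count in any library, where 3 counts would be 0.078 to 0.11 CPM in a library, a floor that covers counting error only. A further 24 had counts and were too low to test.

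Of the membrane-type Mmp genes, Mmp14 and Mmp17 rose and Mmp15 fell. Mmp14 (MT1-MMP, a collagenase of the cell surface that also activates pro-MMP2, ENSMUSG00000000957, GRCm38 chromosome 14, 54431612 to 54445364, plus strand) had 928, 1042, 979, 858 and 1008 CPM in the libraries labelled knockout and 496, 494, 531 and 458 CPM in the controls. Every library labelled knockout lay above every control, and the spread within each group was small against the gap. It averaged 963 ± 72.1 CPM in the libraries labelled knockout and 495 ± 29.7 CPM in the controls, a 1.95-fold rise (log2 0.96 ± 0.10 SE, edgeR adjusted p = 1.36e-04). Mmp17 (MT4-MMP, held by a lipid anchor, chromosome 5, 129584169 to 129611099, plus strand) had 13.6, 17.8, 25.5, 5.49 and 9.89 CPM in the libraries labelled knockout, against 2.85, 2.34, 1.54 and 1.36 CPM in the controls. The groups did not overlap, and the rise was 7.16-fold (log2 2.84 ± 0.45 SE, edgeR adjusted p = 0.00161), or 4.80-fold without knockout-labelled replicates 2 and 3. Mmp15 (MT2-MMP, a transmembrane relative of Mmp14, chromosome 8, 95352268 to 95375080, plus strand) went the other way, at 0.529, 3.86, 1.38, 0.479 and 0.301 CPM in the libraries labelled knockout and 6.32, 4.93, 6.30 and 9.01 CPM in the controls. Replicate 2 of the libraries labelled knockout came closest to the control range without reaching it, and the other 4 were at most 1.38 CPM. Mmp15 fell 5.02-fold (edgeR adjusted p = 0.0257), 15.1-fold without replicates 2 and 3, and log2 -3.26 without replicate 2 alone. Its call ended in 6 of 17 alternatives at edgeR adjusted p up to 0.0717, among them without control replicate 1, 3 or 4, without knockout-labelled replicate 1 and without a count filter. Mmp16 and Mmp24 (transmembrane) and Mmp25 (lipid-anchored) were too low to test.

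Among the secreted Mmp genes, Mmp11 rose most and Mmp28 fell most. Mmp11 (stromelysin-3, which furin activates inside the cell, ENSMUSG00000000901, chromosome 10, 75923222 to 75936496, minus strand) had 12.6, 10.1, 24.9, 5.45 and 5.64 CPM in the libraries labelled knockout and 0.164, 0.500, 0.725 and 0.473 CPM in the controls. The lowest library labelled knockout stood several-fold above the highest control, and the 25.03-fold rise (log2 4.65 ± 0.60 SE, edgeR adjusted p = 0.000565) rests on a low control level. The controls alone fall short of the count filter, so this adjusted p describes a gene that the libraries labelled knockout helped to select. Without replicates 2 and 3 the rise was 16.9-fold. Mmp11 shares 155 exon bases with Chchd10 on the other strand, which averaged 3.97 CPM in the libraries labelled knockout and 1.25 CPM in the controls, and the part of that overlap was not tested. Mmp28 (epilysin, a secreted enzyme made in many epithelia, ENSMUSG00000020682, chromosome 11, 83440768 to 83463071, minus strand) had 5.40, 6.26, 1.09, 5.12 and 3.44 CPM in the libraries labelled knockout and 22.1, 31.5, 23.3 and 25.1 CPM in the controls. It fell 6.003-fold (log2 -2.59 ± 0.40 SE, edgeR adjusted p = 0.00139), with no overlap between the groups.

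Erg and Fli1 bind DNA at an ETS core, GGAA, so the upstream sequences of the members with the largest fold changes at 10 CPM or more (Mmp11, Mmp17, Mmp28 and Adam12) were looked up in the RefSeq promoter table of GRCm38.p6. The table held Mmp11 and Mmp28, and Mmp14 was added after its values were seen. Each line gives the 250 bases before the annotated start, 5′ to 3′ on the gene's strand, with every GGAA or its reverse complement TTCC in capitals. The RefSeq starts of Mmp11 and Mmp28 lie inside the GENCODE spans given above, so these windows overlap those genes.
Mmp11, chr10:75932503-75932752, minus strand: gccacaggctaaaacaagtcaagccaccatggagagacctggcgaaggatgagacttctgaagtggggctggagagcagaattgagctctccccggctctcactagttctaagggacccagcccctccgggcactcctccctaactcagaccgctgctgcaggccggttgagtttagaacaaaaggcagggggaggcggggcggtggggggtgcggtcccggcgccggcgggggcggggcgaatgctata
Mmp28, chr11:83463041-83463290, minus strand: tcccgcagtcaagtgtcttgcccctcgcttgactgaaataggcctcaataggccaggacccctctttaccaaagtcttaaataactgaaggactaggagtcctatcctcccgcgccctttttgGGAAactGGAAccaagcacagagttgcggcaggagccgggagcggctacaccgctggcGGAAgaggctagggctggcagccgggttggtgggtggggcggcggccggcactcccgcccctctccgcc
Mmp14, chr14:54431348-54431597, plus strand: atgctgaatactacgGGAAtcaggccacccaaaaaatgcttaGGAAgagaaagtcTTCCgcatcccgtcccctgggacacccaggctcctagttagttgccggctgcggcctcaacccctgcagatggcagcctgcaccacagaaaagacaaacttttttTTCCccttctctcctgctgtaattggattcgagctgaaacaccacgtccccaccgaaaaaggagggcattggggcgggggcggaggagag
The core occurred 0 times in the window of Mmp11, 3 times in that of Mmp28 and 4 times in that of Mmp14. It occurred in 93.4% of the 32851 upstream windows in the table, and in 50 of the 57 windows of the 52 members that the table held (87.7%). The longer strings AGGAAG and CGGAAG, which contain the core, or their complements, occurred in 39.2% of all windows in 40.4% of the members' windows, and in 8 of the 14 windows of members that changed (57.1%). A match in such a window is a description of letters and not a binding site, and Mmp11, with none, says only that these letters are not in this window.

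**Figure D2:**
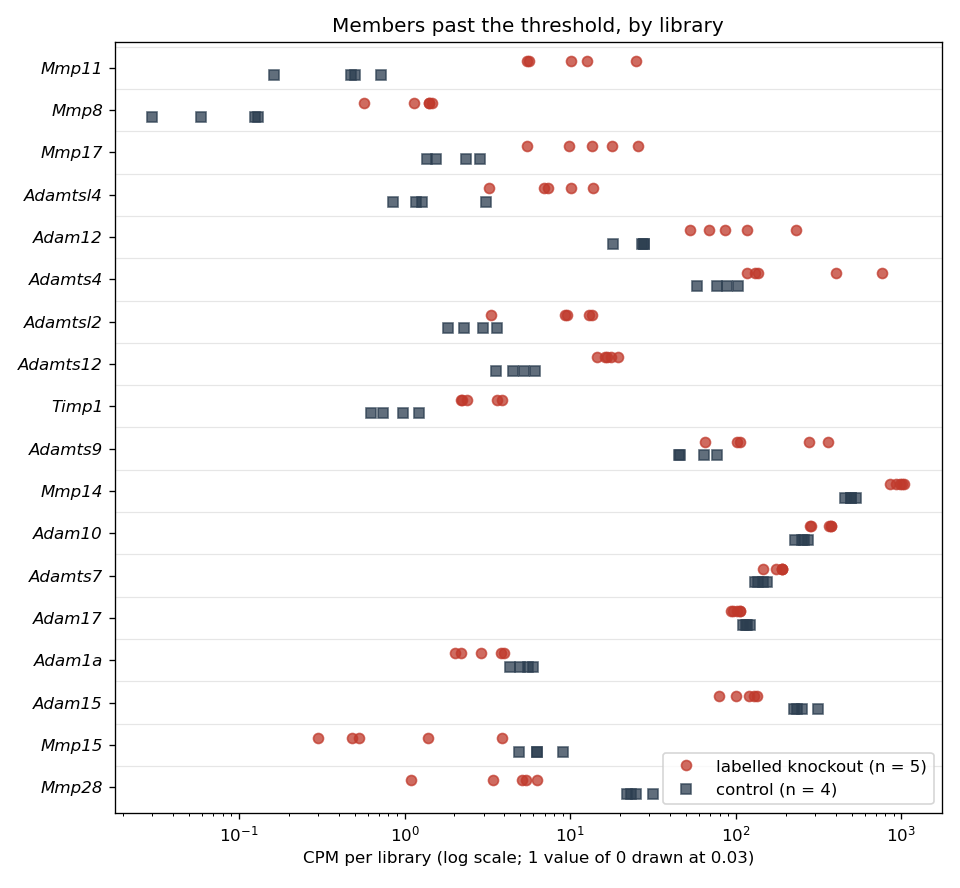
CPM of the 18 members that passed the threshold at 1 CPM or more in a group, on a log scale, with 1 point per library (circles above, labelled knockout, n = 5; squares below, control, n = 4), sorted by fold change. Mmp14 separates by a narrow, tight gap, Mmp11 by the widest, and Adamts9, Adamts7 and Adamtsl2 overlap.

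The secreted collagenase gene Mmp8 and the gelatinase genes Mmp2 and Mmp9 were low in both groups. Mmp8 (neutrophil collagenase, chromosome 9, 7558456 to 7568485, plus strand) had 1.41, 1.14, 1.40, 1.47 and 0.568 CPM in the libraries labelled knockout, against 0.131, 0.125, 0 and 0.0591 CPM in the controls, and rose 14.6-fold on 10 control counts in all (edgeR adjusted p = 0.00114). It passed the count filter only through the libraries labelled knockout, so this adjusted p describes a gene selected where it is high. The neutrophil markers moved the same way: of 9 listed genes, 5 could be tested, 4 of them rose and 1 did not pass. S100a8 averaged 3.60 ± 1.83 CPM in the libraries labelled knockout and 0.610 ± 0.601 CPM in the controls, and Ltf 2.18 ± 1.16 CPM in the libraries labelled knockout, against 0.0239 ± 0.0303 CPM in the controls. Camp, Elane, Ly6g and Mpo had no control count, and in the libraries labelled knockout they averaged between 0.0218 and 0.568 CPM. The part of these markers in the Mmp8 result was not tested. Mmp9 (gelatinase B, also abundant in neutrophils) had 2.08, 3.64, 9.07, 2.25 and 1.10 CPM in the libraries labelled knockout and 0.327, 0.687, 2.80 and 0.0295 CPM in the controls, and did not pass (edgeR adjusted p = 0.161). Its groups overlapped through control replicate 3, and it passed when that library was left out. Mmp2 (gelatinase A, a substrate of Mmp14) was 0.558 ± 0.289 CPM in the libraries labelled knockout and 0.117 ± 0.118 CPM in the controls, higher at edgeR adjusted p = 0.0434, a call that ended in 6 of the 12 alternatives that could fit it, 4 of them each without 1 control library, at edgeR adjusted p up to 0.119. Mmp8 is 1 of 10 Mmp genes that lie together within 427.1 kb on chromosome 9 (Mmp13, Mmp12, Mmp1b, Mmp3, Mmp1a, Mmp10, Mmp8, Mmp27, Mmp20 and Mmp7). Of these 10, 4 had no count, only Mmp8 and Mmp27 could be tested, and no group mean passed 1.20 CPM.

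Of the 4 Timp inhibitors, only Timp1 passed the threshold over all libraries. Timp3, which binds to matrix and inhibits Mmp14, Adam17 and several Adamts enzymes (chromosome 10, 86300372 to 86349506, plus strand), had 711, 1885, 1018, 574 and 459 CPM in the libraries labelled knockout and 1320.2, 1215, 1585 and 1416 CPM in the controls. In 4 of the 5 libraries labelled knockout it lay below every control, and replicate 2 lay above them all. Over all libraries it did not pass (log2 -0.57 ± 0.37 SE, edgeR adjusted p = 0.274). Without replicates 2 and 3 Timp3 was 2.37-fold lower (edgeR adjusted p = 0.000599), and without replicate 2 alone its log2 fold change was -0.998 (edgeR adjusted p = 0.0115). Replicates 2 and 3 were picked with earlier results of these data known. Here and below, adjusted p-values without them describe the remaining libraries and are no separate test. Timp2, which with Mmp14 forms the complex that activates pro-MMP2, had 74.9, 40.98, 20.7, 55.2 and 128 CPM in the libraries labelled knockout and 41.2, 31.8, 30.8 and 22.2 CPM in the controls, and did not pass (log2 1.02 ± 0.45 SE, edgeR adjusted p = 0.116). Without replicates 2 and 3 it was 2.76-fold higher (edgeR adjusted p = 0.00881), and it also passed without replicate 3 alone (edgeR adjusted p = 0.0274) and in DESeq2 (adjusted p = 0.0408). Timp1, the inhibitor released in many forms of tissue injury, had 2.19, 3.86, 3.64, 2.21 and 2.37 CPM in the libraries labelled knockout and 0.982, 0.625, 1.23 and 0.738 CPM in the controls, and rose 3.19-fold (edgeR adjusted p = 0.00265), though it stayed low. Timp4 was too low to test.

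Per kilobase of exon, the mean of Mmp14 stood above that of Timp3 in the libraries labelled knockout and below it in the controls. The ratio of Mmp14 to Timp3, computed after both genes' values were seen, was 1.79, 0.756, 1.31, 2.04 and 2.997 in the libraries labelled knockout and 0.513, 0.555, 0.458 and 0.442 in the controls. The lowest ratio of the libraries labelled knockout, in replicate 2, lay above the highest control. Against the sum of all 4 Timp genes per kilobase, Mmp14 stood at 1.43, 0.71, 1.22, 1.65 and 1.84 in the libraries labelled knockout and 0.478, 0.524, 0.437 and 0.426 in the controls. The ratio compares transcript levels and not active enzyme.

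**Figure D3:**
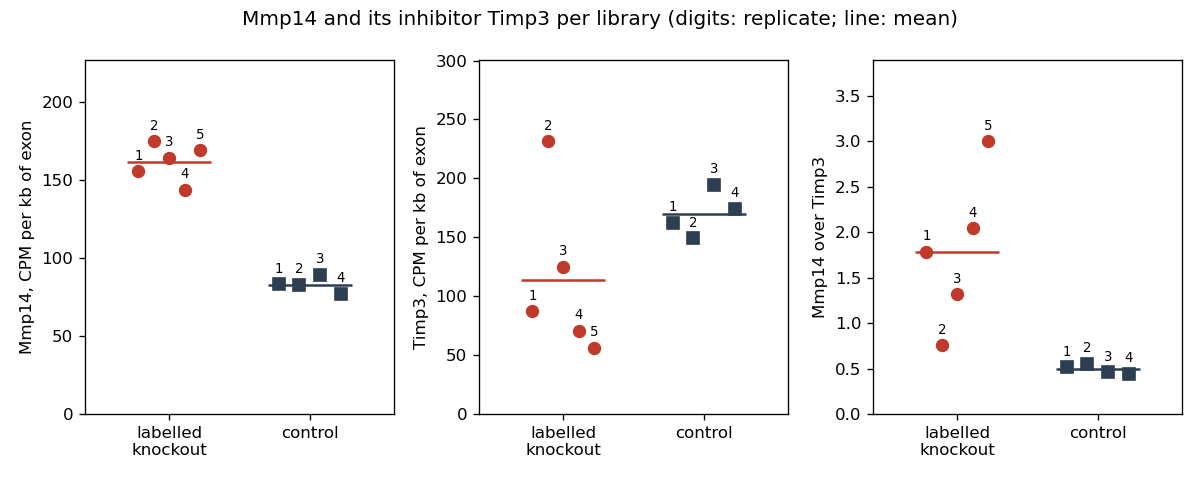
Mmp14 and Timp3 in CPM per kb of exon and their ratio, 1 point per library (labelled knockout, n = 5, left; control, n = 4, right; digits are replicate numbers, lines are means). All Mmp14 points of the libraries labelled knockout lie above the controls, Timp3 overlaps through replicate 2, and the ratios do not overlap.

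Among the catalytic Adam sheddases, Adam12 and Adam10 rose, while Adam15 and Adam17 fell. Adam12 (meltrin alpha, which sheds growth factor precursors, ENSMUSG00000054555, chromosome 7, 133883199 to 134232146, minus strand) had 230.0, 69.4, 117, 52.5 and 86.2 CPM in the libraries labelled knockout and 27.8, 27.1, 18.1 and 27.8 CPM in the controls. All libraries labelled knockout lay above the controls, with replicate 1 the highest, and the rise was 4.41-fold (log2 2.14 ± 0.41 SE, edgeR adjusted p = 0.00435). Adam15 (found at endothelial cell junctions, ENSMUSG00000028041, chromosome 3, 89338542 to 89349996, minus strand) had 100.7, 129.5, 78.8, 134 and 119.8 CPM in the libraries labelled knockout and 224, 251, 314 and 233 CPM in the controls. It fell 2.27-fold (log2 -1.18 ± 0.16 SE, edgeR adjusted p = 0.000725) with a clear gap between the groups. Adam10, the main sheddase of Notch receptors, had 378, 283, 281, 365 and 377 CPM in the libraries labelled knockout and 273, 249.6, 259 and 228 CPM in the controls. The groups came close without overlapping, the rise was 1.33-fold (edgeR adjusted p = 0.0277), and the call ended in 8 of 18 alternatives at edgeR adjusted p up to 0.11, among them without control replicate 2, 3 or 4 and without knockout-labelled replicate 1, 4 or 5. Adam17 (TACE, which releases TNF and cuts many receptors) had 106, 93.2, 106, 96.3 and 101.1 CPM in the libraries labelled knockout and 121, 109.9, 115 and 116 CPM in the controls. Its fall was 1.15-fold (edgeR adjusted p = 0.0411), and the call ended in 11 of 18 alternatives at edgeR adjusted p up to 0.146, among them without any 1 control library and without knockout-labelled replicate 2, 4 or 5. It shares 311 exon bases with Iah1 on the other strand, which averaged 33.9 CPM in the libraries labelled knockout and 25.3 CPM in the controls.

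The other abundant Adam genes did not pass the threshold. Adam9, a broad sheddase, averaged 164 ± 14.9 CPM in the libraries labelled knockout and 173 ± 9.40 CPM in the controls (log2 -0.08 ± 0.08 SE). Adam19, meltrin beta, averaged 97.2 ± 26.1 CPM in the libraries labelled knockout and 112 ± 11.2 CPM in the controls (log2 -0.21 ± 0.20 SE). Adam23, which lacks a working catalytic site and binds integrins, had 729, 887, 533, 1385 and 1414 CPM in the libraries labelled knockout and 849, 742, 934 and 850.4 CPM in the controls, so that replicates 4 and 5 lay above all controls and replicates 1 and 3 below them (log2 0.23 ± 0.27 SE). Adam1a fell 1.75-fold to 2.98 ± 0.908 CPM in the libraries labelled knockout, against 5.21 ± 0.721 CPM in the controls (edgeR adjusted p = 0.0289), but 4779 of its 7508 exon bases are shared with Gm42878 on the same strand and 1805 with Mapkapk5, so its reads are uncertain. That call ended in 6 of 17 alternatives, at edgeR adjusted p up to 0.0801. Adam11, a non-catalytic member of brain tissue, was higher at 0.527 ± 0.153 CPM in the libraries labelled knockout and 0.153 ± 0.163 CPM in the controls (edgeR adjusted p = 0.0444), a call that ended in 11 of 17 alternatives at edgeR adjusted p up to 0.128. Without control replicate 1 the log2 fold change of Adam11 was 2.81, against 1.79 over all libraries. Of the 33 Adam genes, 13 had no count at all, among them all 7 that lie in 2 clusters on chromosome 8 (Adam24, Adam25, Adam20 and Adam39 in the one, Adam26b, Adam26a and Adam34 in the other).

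Among the Adamts genes, 4 rose and none of the 10 tested fell (40% and 0%, against 14.5% and 14.8% of all tested genes). Adamts12, a COMP-cleaving enzyme (ENSMUSG00000047497, chromosome 15, 11064790 to 11349231, plus strand), had 19.3, 16.2, 16.7, 14.4 and 17.6 CPM in the libraries labelled knockout and 5.24, 6.09, 4.54 and 3.54 CPM in the controls. Both groups were tight, and the 3.47-fold rise (log2 1.80 ± 0.16 SE) had the smallest adjusted p among the members, 7.70e-05 in edgeR. Its close relative Adamts7 had 191, 146, 175, 190.2 and 189.7 CPM in the libraries labelled knockout and 130.0, 136, 155 and 146 CPM in the controls, a 1.26-fold rise (edgeR adjusted p = 0.029) in which replicate 2 lay within the control range, and the call ended in 8 of 18 alternatives at edgeR adjusted p up to 0.103, among them without control replicate 1, 2 or 4 and without knockout-labelled replicate 1, 4 or 5.

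Adamts4 and Adamts9, which cut proteoglycans, varied widely among the libraries labelled knockout. Adamts4 (aggrecanase-1, chromosome 1, 171250421 to 171260637, plus strand) had 136, 763, 405, 117 and 130.1 CPM in those libraries, against 77.0, 88.3, 58.6 and 103 CPM in the controls. Replicates 2 and 3 stood far above replicates 1, 4 and 5, which themselves lay just above the controls. The 3.79-fold rise (log2 1.92 ± 0.59 SE, edgeR adjusted p = 0.0359) was 1.57-fold without replicates 2 and 3 (edgeR adjusted p = 0.0236) and log2 1.27 without replicate 2 alone (edgeR adjusted p = 0.0497). Its call ended in 8 of 18 alternatives, among them without any 1 control library or without knockout-labelled replicate 3 (edgeR adjusted p between 0.0622 and 0.0966). Adamts9, a versican-cutting enzyme (chromosome 6, 92772699 to 92943492, minus strand), had 102, 359.8, 278, 106 and 65.4 CPM in the libraries labelled knockout and 46.2, 45.2, 77.1 and 64.3 CPM in the controls. Replicate 5 lay within the control range. Its 3.13-fold rise (edgeR adjusted p = 0.0336) was 1.57-fold and not past the threshold without replicates 2 and 3 (edgeR adjusted p = 0.0678). The call also ended without any 1 control library and without replicate 2 or 3 alone (edgeR adjusted p between 0.0553 and 0.0931). The antisense gene A730049H05Rik shares 1381 exon bases with Adamts9 and was at a mean of 40.2 CPM in the libraries labelled knockout and 0.495 CPM in the controls. Whether strand was used in counting is not given in the sources used here, and the part of that gene in the Adamts9 counts was not tested.

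Adamts1, which cuts versican and aggrecan and has the highest mean per kilobase of the members, had 708, 2633, 1726, 499.8 and 549 CPM in the libraries labelled knockout and 1463, 1129.5, 602 and 1393 CPM in the controls. Replicates 2 and 3 were above every control, and replicates 1, 4 and 5 were within or below the control range. Over all libraries it did not pass (log2 0.09 ± 0.52 SE, edgeR adjusted p = 0.912), and without replicates 2 and 3 it was 1.95-fold lower (edgeR adjusted p = 0.0434). Its neighbour on chromosome 16, Adamts5 (aggrecanase-2), averaged 3.19 ± 2.73 CPM in the libraries labelled knockout and 5.05 ± 3.45 CPM in the controls and did not pass (log2 -0.66 ± 0.60 SE), and was 3.04-fold lower without replicates 2 and 3 (edgeR adjusted p = 0.0495). Without knockout-labelled replicate 2 alone its log2 fold change was -1.30 (edgeR adjusted p = 0.0788), and without control replicate 4, its highest control, -0.066 (edgeR adjusted p = 0.947). Adamts6, a relative of Adamts10, averaged 3.16 ± 2.27 CPM in the libraries labelled knockout and 6.42 ± 3.31 CPM in the controls and did not pass (log2 -1.02 ± 0.50 SE). It was 3.38-fold lower without replicates 2 and 3 (edgeR adjusted p = 0.0127), and lower also without replicate 2 alone (log2 -1.55, edgeR adjusted p = 0.0161). Adamts14, a procollagen N-propeptidase, averaged 10.6 ± 7.08 CPM in the libraries labelled knockout and 5.04 ± 2.08 CPM in the controls and did not pass (log2 1.07 ± 0.48 SE), with a log2 fold change of 0.24 without replicates 2 and 3 (edgeR adjusted p = 0.624). Adamts10, which binds fibrillin, averaged 181 ± 35.1 CPM in the libraries labelled knockout and 185 ± 26.6 CPM in the controls and did not pass (log2 -0.03 ± 0.15 SE).

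**Figure D4:**
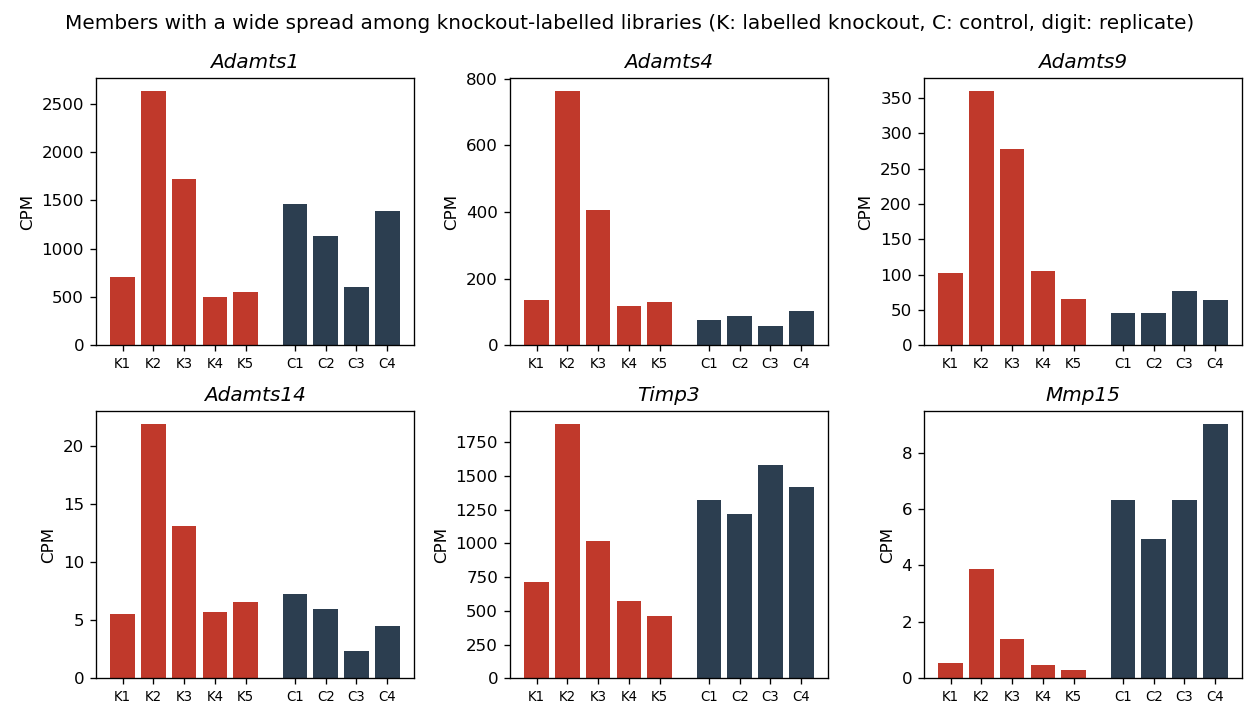
CPM of 6 members in each library (bars; K1 to K5 labelled knockout, C1 to C4 control). In all 6, knockout-labelled replicates 2 and 3 stand above replicates 1, 4 and 5. For Mmp15 they still lie below the controls.

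That split of the libraries labelled knockout, picked with earlier results of these data known, was common among the members. In 16 of the 41 tested members (39%), both replicates 2 and 3 lay above all of replicates 1, 4 and 5, and this held for 18.4% of all tested genes. The 16 were Adam8, Adam11, Adam33, Adamts1, Adamts4, Adamts5, Adamts6, Adamts9, Adamts14, Adamtsl1, Adamtsl5, Mmp9, Mmp15, Mmp17, Timp1 and Timp3. The opposite order, both below, held for 5 members (Adam10, Adamts7, Adamtsl2, Adamtsl4 and Timp2), that is 12.2%, and for 18.6% of all tested genes. Replicate 2 was the highest library labelled knockout in 18 of the 41 members, and in 22.5% of all tested genes. Each Kupffer cell marker examined was also highest in replicate 2 among the libraries labelled knockout, while the hepatocyte marker Alb was highest in replicate 4. The part of other cell types in the members' values was not tested. The summed Adamts level per kilobase was 223, 732, 489, 175 and 192 CPM per kb in the libraries labelled knockout and 337, 282, 182 and 339.5 CPM per kb in the controls. The summed Mmp level was 168, 189, 184, 151 and 176 CPM per kb in the libraries labelled knockout and 92.0, 93.7, 99.8 and 87.3 CPM per kb in the controls. The Adamts sums overlapped between groups and the Mmp sums did not. Mmp14 alone made up most of the Mmp sum, at 156, 175, 164, 144 and 169 CPM per kb in the libraries labelled knockout and 83.2, 82.8, 89.1 and 76.9 CPM per kb in the controls.

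**Figure D5:**
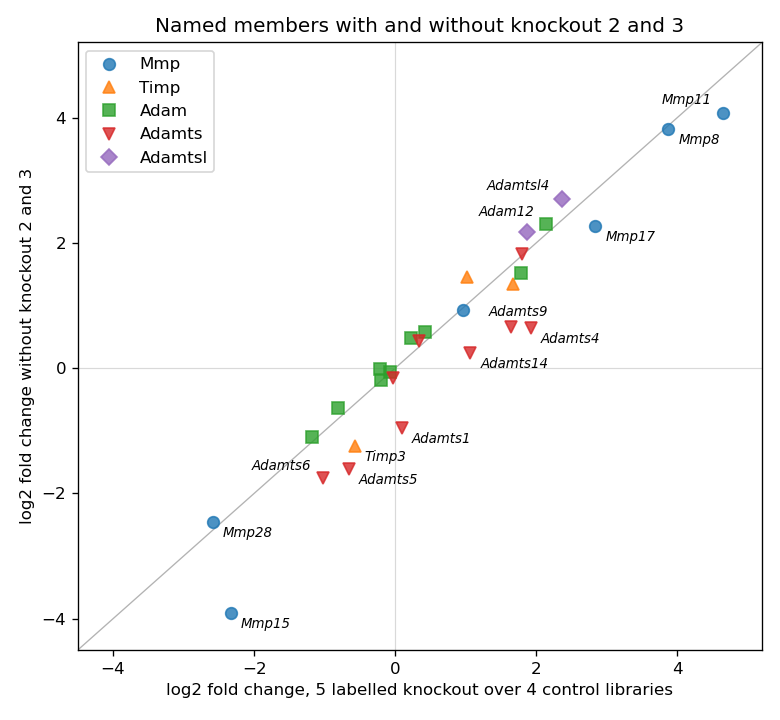
Log2 fold change of the 29 named members that both fits could hold, over all 9 libraries (horizontal) and without knockout-labelled replicates 2 and 3 (vertical), with the line of equality. Adamts1, Adamts4, Adamts9, Timp3 and Mmp15 lie well below the line, and Mmp14, Mmp28, Adam12 and Adam15 lie near it.

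Of the Adamtsl genes, several of whose products bind fibrillin, 2 rose. Adamtsl2 had 13.5, 9.35, 3.33, 9.54 and 13.02 CPM in the libraries labelled knockout and 1.83, 2.97, 3.59 and 2.27 CPM in the controls, a 3.65-fold rise (edgeR adjusted p = 0.00619) with replicate 3 inside the control range. Adamtsl4 had 7.30, 6.91, 3.22, 13.8 and 10.1 CPM in the libraries labelled knockout and 1.18, 1.28, 3.09 and 0.857 CPM in the controls, a 5.15-fold rise (edgeR adjusted p = 0.00616) with the groups just apart. Adamtsl1 and Adamtsl5 did not pass, and Adamtsl3 was too low to test.

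Genes that activate, escort or restrain these proteases were taken as a list of 32, of which 27 could be tested, 9 rose and 2 fell (33.3% and 7.41% of those tested, against 14.5% and 14.8% of all tested genes). The count that fell was 4 without knockout-labelled replicate 2 and 5 without replicates 2 and 3. Furin, the convertase that removes the inhibitory propeptide of Mmp11, Mmp14 and many Adam proteins, averaged 313 ± 14.9 CPM in the libraries labelled knockout and 161 ± 15.05 CPM in the controls, a 1.94-fold rise (edgeR adjusted p = 6.76e-05). Plau, the urokinase that makes plasmin, rose 6.63-fold, and Thbs1, a matricellular protein, 21.9-fold. Tspan15, a tetraspanin that escorts Adam10 to the surface, fell 2.46-fold to 66.6 ± 10.01 CPM in the libraries labelled knockout, against 164 ± 23.5 CPM in the controls (edgeR adjusted p = 1.42e-04). Named after its values were seen, Tspan14, another escort of Adam10, fell 1.45-fold. Also named after their values were seen, Rhbdf1, a rhomboid-like escort of Adam17, rose 1.94-fold, and Frmd8, which stabilises such escorts, rose 1.596-fold. The other such escort, Rhbdf2, averaged 38.8 ± 8.86 CPM in the libraries labelled knockout and 43.0 ± 5.16 CPM in the controls and did not pass (log2 -0.15 ± 0.16 SE, edgeR adjusted p = 0.525). Reck, a membrane inhibitor of Mmp enzymes, averaged 4.89 ± 1.80 CPM in the libraries labelled knockout and 2.60 ± 0.456 CPM in the controls and rose 1.88-fold (edgeR adjusted p = 0.0422).

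Of 39 endothelial genes whose proteins are known to be shed, 37 could be tested, 2 rose and 13 fell (5.41% and 35.1%, against 14.5% and 14.8% of all tested genes). The count that rose was 1 in limma-voom, without a count filter, without any 1 control library and without knockout-labelled replicate 2 or 3, and the count that fell lay between 9 and 16 over the alternatives. The 4 with the smallest p all fell: the VEGF receptor gene Flt1 2.90-fold, the receptor gene Tie1 2.02-fold, the Notch ligand gene Dll1 4.97-fold and the junction gene Jam3 2.06-fold. Of 32 matrix genes whose proteins these enzymes cut or bind, 27 could be tested, 8 rose and 6 fell (29.6% and 22.2%, against 14.5% and 14.8% of all tested genes). Ltbp4, which holds latent TGF-beta in the matrix, fell 8.90-fold and the laminin gene Lama4 2.87-fold. Fbn1, the fibrillin that Adamtsl2, Adamtsl4 and Adamts10 bind, averaged 119 ± 43.3 CPM in the libraries labelled knockout and 19.0 ± 3.10 CPM in the controls and rose 6.28-fold (edgeR adjusted p = 2.65e-04). Efemp2, an elastic fibre protein, rose 3.04-fold. Earlier results of these data were known when these 3 lists were written, so their counts are descriptions.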

How the data were processed

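RNA of sorted mouse liver endothelial cells was sequenced in 5 libraries labelled Erg and Fli1 double knockout and 4 labelled Wild Type, all at day 7 after tamoxifen. The authors deposited raw read counts per gene for each library. Per the submitters' processing notes, the tools were STAR 2.7.6a and FastQC 0.11.5 and the genome build was GRCm38. Neither source used here, the labels or those notes, names how reads were counted, on which annotation release, or whether strand was used. Libraries were made with a TruSeq RNA v2 or a TruSeq Stranded kit, per the labels' protocols, which do not say which library had which. Reads of overlapping genes on opposite strands may therefore not be separated.

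Counts were tested with edgeR 4.0.16 in R 4.3.3 (TMM scaling, filterByExpr by group with a minimum count of 10, robust glmQLFit, glmQLFTest, Benjamini-Hochberg over 14583 genes, threshold 0.05). SE is the log2 fold change divided by the square root of F. Alternatives used DESeq2 1.42.0, limma 3.58.1 (voom), other scalings and filters, a replicate block, a sex term and left-out libraries. Exon lengths and coordinates are from GENCODE vM21, and upstream sequences from RefSeq. The fit was tested on simulated data with 100 genes changed 2-fold and 100 changed 4-fold. It recovered 68 of the 2-fold and 92 of the 4-fold changes and called 8 unchanged genes, so a 2-fold change can be missed. Members described by library passed the threshold at 1 CPM or more in a group, other members at 5 CPM or more are given by means, and up to 4 genes of each list have the smallest p. The members, lists and alternatives were chosen with earlier results of these data known. Of the Adamts genes, 1 is not analysed here. Library totals ran from 26791371 to 36401682 counts, and floors cover counting error only.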

Additional observations from a re-analysis of the deposited data

Results flagged for a closer look

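In 3 of the 60 groups of libraries examined, 1 library stood far from the others, and chance gives about 1 in 20. Adam12 in the controls had 18.1 CPM in replicate 3, where the nearest other control had 27.1 CPM, a gap of 0.926 of the group's range, past Dixon's critical value. Adamts5 in the controls had 10.2 CPM in replicate 4, where the nearest other control had 3.72 CPM, a gap of 0.878 of the range. Adamts6 in the libraries labelled knockout had 7.13 CPM in replicate 2, where the nearest other had 3.01 CPM, a gap of 0.773 of the range.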

How the results depend on the processing

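Among the named members' fold changes under the alternatives, 437 kept direction and side of the threshold, 74 lost the call, 8 gained one and 9 changed sign. Adam12, Adam15, Adamts12, Mmp11, Mmp14, Mmp17 and Mmp28 kept their calls under all 18 alternatives, and Mmp8 and Timp1 under all that fitted them. Mmp8 passed the count filter only through the libraries labelled knockout, and the controls of Mmp11 alone fall short of it. Mmp11 and Mmp17 passed the filter of 5 CPM in 4 libraries only through the libraries labelled knockout. Members called higher numbered 9 to 12 with 1 library left out, and members called lower 2 to 6, against 15 and 5 over all libraries. Members called lower numbered 3 without a count filter, 3 with a filter of 5 CPM in 4 libraries, and 8 without knockout-labelled replicates 2 and 3. Replicate numbers did not pair the libraries: deviations of same-numbered libraries correlated at 0.29, -0.031, -0.018 and -0.33. With the replicate block, 2671 genes were called against 4271, 9 members were higher and 3 lower, and Adam23 had a log2 fold change of -0.016. Adam10, Adam11, Adam17, Adamts4, Adamts7, Adamtsl2 (adjusted p = 0.0755), Adamtsl4 (adjusted p = 0.066), Mmp2 and Mmp15 lost their edgeR calls under the block and Mmp9 gained one, while matrix genes called higher numbered 4 against 8 and shed-protein genes called higher 1 against 2. Adamts1 had a log2 fold change of -0.18 in limma-voom and -0.96 without replicates 2 and 3, and between -0.39 and 0.29 with 1 library left out. Adamts10 lay between -0.13 and 0.058 with 1 library left out, its sign changing without control replicate 3 (0.018) or 4 (0.015) or knockout-labelled replicate 4 (0.058). With a sex term (3 of 5 libraries labelled knockout and 1 of 4 controls female by Xist and Ddx3y counts), Adam10, Adam11, Adam17 and Adamts7 lost their calls. The causes were not tested. Under the scalings tried, the median of all genes moved by under 0.1 on the log2 scale. Members below 1 CPM rest on few counts, which limits their precision.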
